A study of Mus musculus with 4 samples.

Results

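The Kruppel-like factors Klf2, Klf3, Klf4, Klf5, Klf6, Klf7, Klf9, Klf10 and Klf13 were followed in granulocyte/monocyte progenitors (GMP) of Icsbp-deficient and wild type mice. The 9 genes were found by their symbol in the platform annotation, which lists them among 18194 genes with a symbol of their own and gives 33 probe sets of the 45101 on the MOE430_2 array. Of these, 26 were also among the 22690 probe sets of the 430A array. An array of this kind reads a transcript through a probe set, a group of short probes, and several probe sets can stand for 1 gene.

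Kruppel-like factors are transcription factors that bind CACCC and GC-rich promoter elements through zinc fingers near their carboxy terminus, and the family is shared with the Sp factors. Members differ in the rest of the protein, through which some activate genes and others, such as Klf3, recruit corepressors. Klf4 is known for promoting monocyte differentiation, Klf2 for keeping lymphocytes and myeloid cells quiescent, and several others are induced by growth factors or hormones. Icsbp, also called Irf8, is an interferon regulatory factor needed for monocyte development, and Klf4 has been described as lying downstream of it.

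Total RNA came from GMP, the marrow progenitors of granulocytes and monocytes, purified by flow cytometry from mice 10 to 16 weeks old. The Icsbp-deficient group has 2 arrays, 1 of each array type, each from pooled marrow of at least 8 mice, and the wild type group also has 2, 1 of each type, each from pooled marrow of at least 10 mice. For 1 wild type array, on 430A, the label names a mixed C57/Bl6 and S129Ola background and no genotype; the design text of the series places it. No source used here gives the strain of the other arrays or which part of Icsbp was deleted. Each array is a pool, so the spread between mice was not measured, and the number of arrays limits the precision.

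Ratios below divide the Icsbp-deficient by the wild type array of the same type, on the scale of log2 of the scaled signal plus an offset of 50. Scaled signals have a trimmed mean of 500 on each array, and they are not compared between probe sets. The test was limma with array type as a block, fitted over 13576 probe sets that both array types carry and that passed a filter on low signal, with Benjamini-Hochberg adjustment over all of them and a threshold of 0.05. Errors given as ± are its moderated standard errors over n = 2 ratios, 1 from each array type. They rest on 1 residual degree of freedom for a probe set and 8.89 borrowed from the others.

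Before scaling, the 430A pair had trimmed mean signals of 167 (Icsbp-deficient) and 498 (wild type), and the MOE430_2 pair had 159 (Icsbp-deficient) and 160.4 (wild type). The targeted gene Irf8 was still read on the Icsbp-deficient arrays: one probe set had 2776 and 2725 there, against 3059 and 4798 in wild type GMP, and the other had 3234 and 1892 in Icsbp-deficient GMP, against 3074 and 1847 in wild type GMP. The log2 ratios were -0.48 and 0.06 (limma adjusted p = 0.124 and 0.832), which checks nothing while the deleted part is unknown. All 8 GMP markers were above the filter, among them the granule enzymes Mpo and Elane, which does not measure purity. Of their 9 probe sets 2 were called higher (Cebpa and Fcgr3) and 1 lower (Cd34), beside 2.99% and 2.14% of all tested probe sets. Cd34 was 3.32-fold lower and Fcgr3 2.01-fold higher, while the Cebpa signals of the 2 groups overlapped. Of the marker list for B and T cells 1 of 10 genes was tested, and of that for endothelial and stromal cells 1 of 5, the others being under the filter or on no shared probe set.

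Klf4 transcripts were lower in Icsbp-deficient GMP on both array types and by both probe sets, and Klf3, Klf7 and Klf9 transcripts were higher by some of their probe sets. Of the 26 shared probe sets 21 passed the filter, belonging to 8 genes, and Klf2 had none. Among the 21, 5 were called higher, 23.8%, beside 2.99% of all tested probe sets, and 2 were called lower, 9.52%, beside 2.14%. The 2 called lower are both of Klf4, and they passed the filter, which is on mean signal, only through their wild type arrays. The remaining 14 were not called. Both Icsbp-deficient signals lay above both wild type signals for 11 of the 21, against 11.6% of all tested probe sets, and below them for 3, against 13.2%. The median log2 ratio was 0.66 over the 21 and -0.01 over all tested probe sets. In wild type GMP Klf7 1419355_at, Klf9 1436952_at and Klf6 1427742_a_at and 1418280_at were on average under the filter level. They passed only through their Icsbp-deficient arrays, so the filter partly sets their direction in these counts and in that median. Probe sets of 1 gene can read the same transcripts, so these counts do not stand for independent events, and the genes were chosen with earlier results known.

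**Figure D1:**
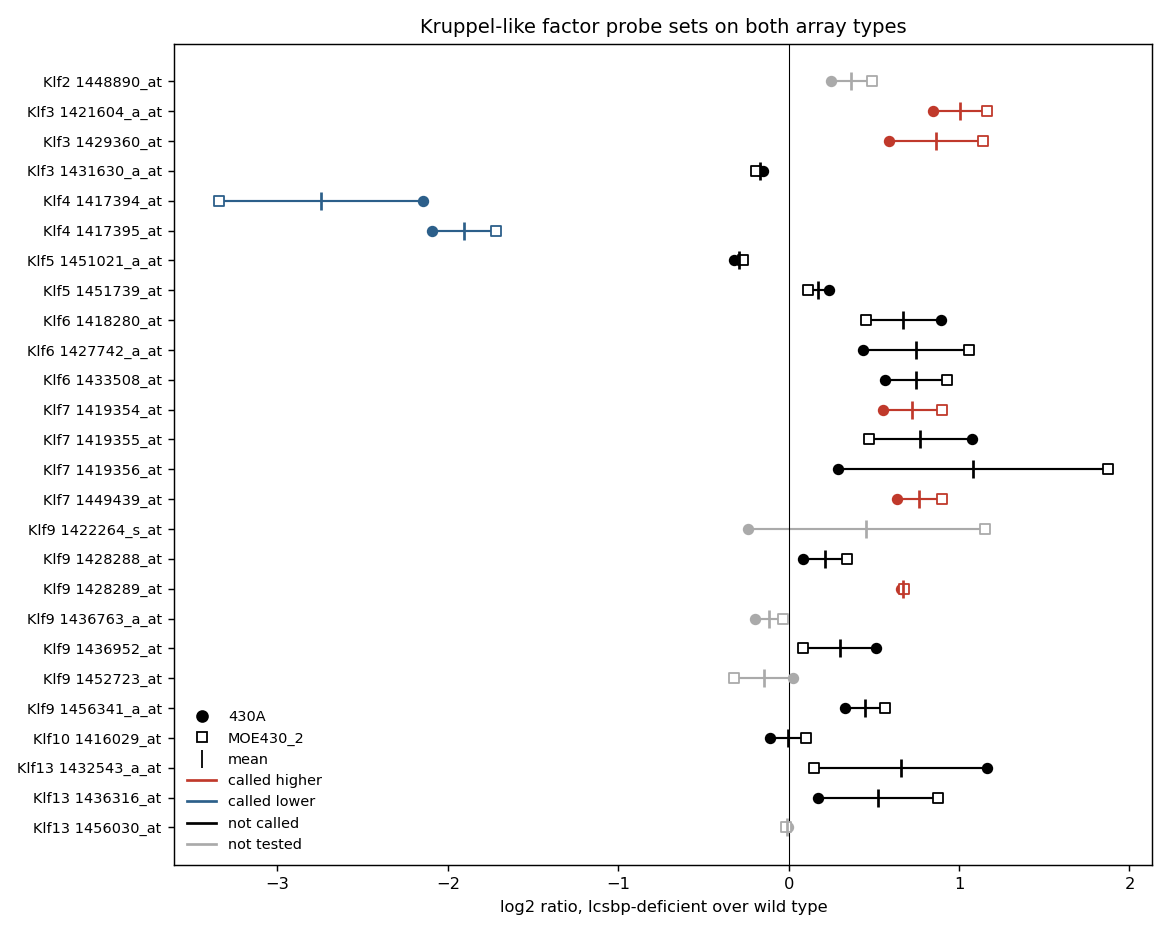
Log2 ratio of Icsbp-deficient over wild type GMP for the 26 probe sets present on both array types, grouped by gene. Filled circles are the 430A pair, open squares the MOE430_2 pair and ticks their mean; 5 probe sets were called higher, 2 lower (both Klf4), 14 were not called and 5 were not tested.

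Klf4 carried the largest differences of the 9 genes. Its first probe set (1417394_at) had scaled signals of 56.2 (430A) and 34.4 (MOE430_2) in Icsbp-deficient GMP, against 419 and 815 in wild type GMP, and signals are given in this order of array types throughout. The groups did not overlap, that is, both arrays of one lay below both of the other, and both Icsbp-deficient signals lay under the level of 76.8 that corresponds to the filter. With the offset the log2 ratios were -2.14 and -3.34, and their mean was -2.74 ± 0.26, which is 6.70-fold lower (limma adjusted p = 0.000408). Only 7 of the 13576 tested probe sets, this one included, had a ratio as low. That rank describes probe sets past the filter, which this one passed through its wild type signals alone.

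The second Klf4 probe set (1417395_at) had signals of 20.3 and 32.5 in Icsbp-deficient GMP, against 251 and 227 in wild type GMP. The wild type arrays are close to each other here, which they were not for the first probe set. Both Icsbp-deficient signals were again under the filter level, so plain ratios of the signals are not given. The mean log2 ratio was -1.90 ± 0.22, a 3.74-fold lower level (limma adjusted p = 0.0014). The offset holds back the ratio most where 1 group is this dim: with an offset of 16 the first probe set was at -3.31 and the second at -2.58 (limma adjusted p = 0.00191 and 0.005), and with an offset of 100 at -2.24 and -1.41.

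**Figure D2:**
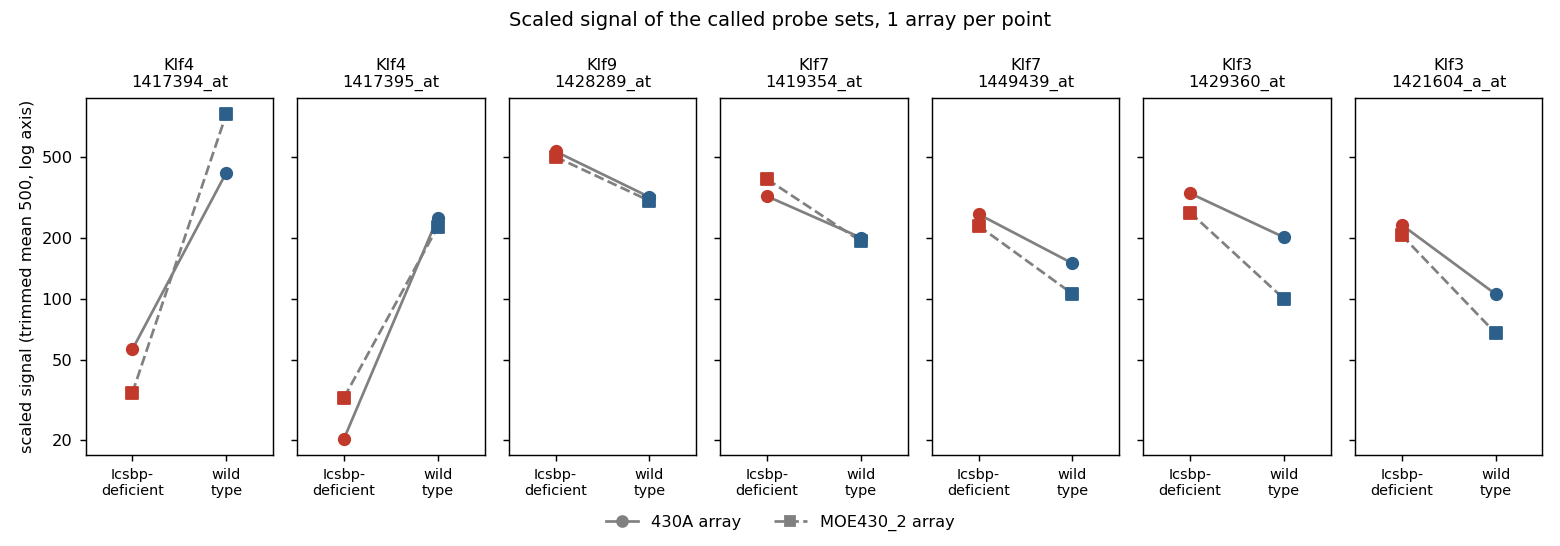
Scaled signal of the 7 called probe sets in Icsbp-deficient and wild type GMP, on a log axis, 1 array per point, with lines joining the arrays of 1 type. Both Klf4 probe sets lie between 20.3 and 56.2 on the Icsbp-deficient arrays and between 227 and 815 on the wild type arrays, and the other 5 are higher on the Icsbp-deficient array of each type.

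With all 4 arrays and no array type block the Klf4 probe sets were not called (limma adjusted p = 0.330 and 0.588). Fits with 1 array left out have no block and a group of 1 array, which is assumed to vary like the other group, so their p-values say little on stability. In them the ratio of the first probe set lay between -3.26 and -2.17, and it was not called without the wild type MOE430_2 array (limma adjusted p = 0.12). The second was not called without the Icsbp-deficient 430A array (-1.61, limma adjusted p = 0.216) and, without either wild type array, fell under the filter and was not tested. With the values as deposited, unscaled, which put the median of all shared probe sets at -0.48, neither was called, at -2.56 and -1.71 (limma adjusted p = 0.83 for each).

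The promoter of Klf4 is shown because it is the gene with the clearest change. RefSeq entries with 250 bases before and 50 after the start site were found for 7 of the 9 genes on build GRCm38.p6. The Klf4 window lies at chr4:55532426-55532725 (minus strand) and is 74.3% G or C. Capitals mark GC boxes (GGGCGG) and CACCC boxes, the kinds of element that Kruppel-like factors and Sp factors bind, on either strand; in a few places they touch or share bases.
Klf4: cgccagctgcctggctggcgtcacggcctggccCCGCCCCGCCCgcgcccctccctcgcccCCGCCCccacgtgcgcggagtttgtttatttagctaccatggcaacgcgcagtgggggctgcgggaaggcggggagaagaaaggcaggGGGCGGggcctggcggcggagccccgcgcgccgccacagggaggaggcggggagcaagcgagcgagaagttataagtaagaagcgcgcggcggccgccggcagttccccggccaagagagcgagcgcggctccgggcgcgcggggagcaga

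The Klf4 window holds 4 GC boxes, which begin 217, 212, 189 and 101 bases before the start site, and no CACCC box. At least 1 GC box occurs in 35.7% and at least 1 CACCC box in 57.5% of the 32851 RefSeq promoters of this length. The letters GAAANNGAA, as in interferon response elements, GGAANNGAA, as in composite sites of ETS and interferon regulatory factors, and GAGGAAGT, as bound by the ETS factor PU.1, were also searched on both strands; the first 2 of these can overlap. None of the 3 is in the Klf4 window, and they occur in 8.56%, 8.24% and 3.20% of all windows. These letters say nothing on binding outside the window.

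The genes whose pair of ratios lay nearest to that of the first Klf4 probe set, over the 2 array types, were Car1, Gm6958, Car2, Cpa3 and Gzmb. Car1 and Car2 are carbonic anhydrases of erythroid cells, Cpa3 is a mast cell protease, and Gzmb is a protease of cytotoxic granules. Their distances in the plane of the 2 log2 ratios were between 0.708 and 0.801. Car1, the nearest, was at -1.44 on 430A and -3.30 on MOE430_2. Like Klf4, the genes Car1, Gm6958 and Gzmb had both Icsbp-deficient signals under the filter level.

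Marker lists of other cells also differed between the groups, some in the direction of Klf4 and some not. Over all tested probe sets 2.14% were called lower and 2.99% higher. In the basophil, mast cell and eosinophil list 10 of 10 tested probe sets, of 8 genes, were called lower. Sums of scaled signal take, for each gene, the probe set with the highest mean signal. For this list they were 2184 and 2200.4 in Icsbp-deficient GMP, against 6265 and 8916 in wild type GMP. In the list of maturing neutrophils 8 of 10 genes were called higher, with sums of 29473 and 55557 in Icsbp-deficient GMP against 10843 and 20062 in wild type GMP. Among 7 tested monocyte and macrophage genes 2 were called lower, Ly86 and Ctss, and 1 higher, Ccr2. The sum of that list was 6705 and 9008 in Icsbp-deficient GMP, against 7067 and 8724 in wild type GMP, so these ranges overlapped. Ly86 itself had 15.6 and 9.46 in Icsbp-deficient GMP, against 1517 and 1878 in wild type GMP. Ly86 too passed the filter only through its wild type arrays, as did Car1. Of 5 tested erythroid genes 2 were called lower, Car1 and Car2, and of 4 tested dendritic cell genes 3, Cd74, H2-Aa and H2-Eb1. Signals of H2-Eb1 overlapped between the groups, with 172 and 7.57 in Icsbp-deficient GMP against 275 and 126 in wild type GMP. The erythroid sum was 749 and 272 in Icsbp-deficient GMP, against 1565 and 2009 in wild type GMP, and the dendritic sum was 758 and 252 in Icsbp-deficient GMP, against 1069 and 786 in wild type GMP. Endothelial cells also express Klf2 and Klf4, and of their markers Cdh5 and Kdr were under the filter on these arrays while Pecam1 was tested and not called (-0.41 on the log2 scale, with an unadjusted p under 0.05). In pooled RNA, fewer cells of a type and less RNA per cell cannot be told apart, and the part of these cells in the Klf4 result was not tested.

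Klf3, a repressor that recruits CtBP corepressors, was higher by 2 of its 3 tested probe sets. Probe set 1421604_a_at had signals of 232 and 206 in Icsbp-deficient GMP, against 105 and 67.6 in wild type GMP. The groups were apart, and the mean log2 ratio was 1.01 ± 0.20, 2.01-fold higher (limma adjusted p = 0.0201). Probe set 1429360_at had 331 and 266 in Icsbp-deficient GMP, against 201 and 99.7 in wild type GMP. It rose by 0.86 ± 0.20 on the log2 scale, with 0.59 on 430A and 1.14 on MOE430_2 (limma adjusted p = 0.0357).

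The other shared Klf3 probe set did not show this. Probe set 1431630_a_at had 528 and 216 in Icsbp-deficient GMP, against 586 and 265 in wild type GMP, a mean log2 ratio of -0.17 ± 0.16 (limma adjusted p = 0.628). The signal differed more between array types than between genotypes. An a in the suffix marks a probe set that reads several transcript forms of 1 gene, and whether the forms read here differ was not tested.

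A further 4 Klf3 probe sets are on the MOE430_2 array alone, with 1 array a genotype and no test. Among them 1454666_at had 1771 in Icsbp-deficient against 1154 in wild type GMP, scaled over all probe sets of that array, a log2 ratio of 0.61. The others had the opposite sign, with log2 ratios of -0.34, -0.42 and -0.79. Of the 7 Kruppel-like factor probe sets found on that array alone, 0 changed at least 2-fold with the offset, against 6.73% of all 22411 such probe sets. In so few probe sets 0 is near that share. Without the offset, Klf3 1441200_at (82.8 in Icsbp-deficient against 182 in wild type GMP) and Klf6 1459718_x_at (84.7 against 41.6) differed more than 2-fold.

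Klf7, a factor known from neuronal development and also expressed in blood progenitors, had the same direction in all 4 of its probe sets on both array types. Probe set 1419354_at had 320.4 and 389 in Icsbp-deficient GMP, against 200.1 and 192 in wild type GMP, and rose by 0.73 ± 0.18 on the log2 scale (1.65-fold, limma adjusted p = 0.0453). Probe set 1449439_at had 261 and 229 in Icsbp-deficient GMP, against 149 and 106 in wild type GMP, and rose by 0.77 ± 0.19 (1.70-fold, limma adjusted p = 0.0473). For each the groups were apart.

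The other Klf7 probe sets did not pass, although their groups were apart as well. Probe set 1419356_at had 262 and 497 in Icsbp-deficient GMP, against 203 and 104 in wild type GMP. Its log2 ratios were 0.29 on 430A and 1.87 on MOE430_2, the widest gap between array types among the tested Kruppel-like factor probe sets, and the mean of 1.08 ± 0.31 had an adjusted p of 0.0787 in limma. It passed with an offset of 100 (adjusted p = 0.0497) and with scaling alone (adjusted p = 0.0313). Probe set 1419355_at had 160 and 97.1 in Icsbp-deficient GMP, against 49.95 and 59.2 in wild type GMP, a mean log2 ratio of 0.77 ± 0.24 (limma adjusted p = 0.112). Both wild type signals of 1419355_at were under the filter level. It passed the filter only through its Icsbp-deficient arrays, so its direction is partly set by the filter.

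Klf9, a factor induced by thyroid and glucocorticoid hormones in other tissues, was called higher by 1 of 4 tested probe sets. Probe set 1428289_at had 534 and 502 in Icsbp-deficient GMP, against 318 and 304 in wild type GMP. The 2 array types gave nearly the same log2 ratio, 0.66 on 430A and 0.68 on MOE430_2, and the mean was 0.67 ± 0.16 (1.59-fold, limma adjusted p = 0.0378). Probe set 1456341_a_at, with 393 and 537 in Icsbp-deficient GMP against 299 and 357 in wild type GMP, was at 0.45 ± 0.16 (limma adjusted p = 0.164). Here too the groups were apart.

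The Klf9 probe set 1428288_at had 1082 and 1520.1 in Icsbp-deficient GMP, against 1012 and 1206 in wild type GMP. The groups overlapped, and the ratio of 0.21 ± 0.14 did not pass (limma adjusted p = 0.473). Probe set 1436952_at was at 0.30 ± 0.24 (limma adjusted p = 0.562), and it passed the filter only through its Icsbp-deficient arrays. The 3 untested Klf9 probe sets were at 0.46, -0.12 and -0.15. The first of these, 1422264_s_at, whose suffix marks probes shared with other genes, had 27.2 and 108 in Icsbp-deficient GMP and 42.7 and 23.1 in wild type GMP, so its sign differed between array types.

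The maturing neutrophil markers described above, 8 of 10 genes called higher with a median log2 ratio of 1.54, moved the same way as these Klf3, Klf7 and Klf9 probe sets, and their part in these results was not tested.

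The 5 calls for Klf3, Klf7 and Klf9 lie closer to the threshold than those for Klf4. Without the array type block 0 of them were called by limma. In that fit 6 of the 21 Kruppel-like factor probe sets were at an unadjusted p under 0.05, beside 478 of all 13576 tested. With no filter on low signal 0 of the 5 were called, with 15 of 26 members at that level, beside 2976 of all 22626 probe sets. In fits that left out any single array none of the 5 was called, while each ratio stayed positive. With an offset of 16 and without the variance trend, Klf3 1421604_a_at was still called (limma adjusted p = 0.0345 and 0.0364) and the other 4 were not. With an offset of 100, with scaling alone, with quantile normalization over all 4 arrays and with cyclic loess, all 5 were called.

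**Figure D3:**
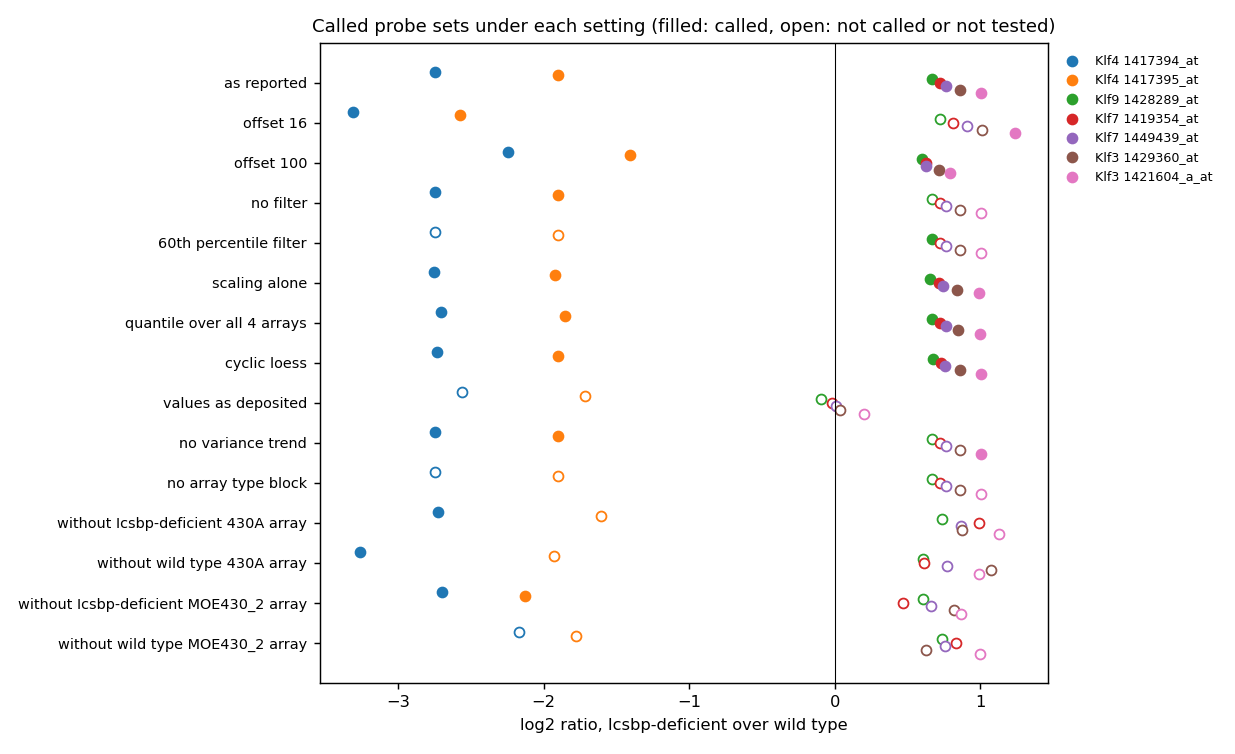
Log2 ratio of Icsbp-deficient over wild type GMP for the 7 called probe sets under the reported setting and 14 alternatives, filled where called. Klf4 stays between -3.31 and -1.41 throughout, and the 5 other probe sets stay above 0 except with the values as deposited, where 2 fall below 0 and the median of all shared probe sets is -0.48.

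The promoters of Klf3, Klf7 and Klf9 are shown beside these rises, with the same capitals as for Klf4. The Klf3 window is chr5:64803271-64803570 (plus strand), that of Klf7 is chr1:64121340-64121639 (minus strand) and that of Klf9 is chr19:23140976-23141275 (plus strand).
Klf3: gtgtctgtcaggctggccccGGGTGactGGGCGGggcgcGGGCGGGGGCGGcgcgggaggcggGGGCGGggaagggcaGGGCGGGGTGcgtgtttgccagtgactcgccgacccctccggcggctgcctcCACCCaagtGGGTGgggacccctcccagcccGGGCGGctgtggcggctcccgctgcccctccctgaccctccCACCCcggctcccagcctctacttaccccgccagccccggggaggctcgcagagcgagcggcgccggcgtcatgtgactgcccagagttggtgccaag
Klf7: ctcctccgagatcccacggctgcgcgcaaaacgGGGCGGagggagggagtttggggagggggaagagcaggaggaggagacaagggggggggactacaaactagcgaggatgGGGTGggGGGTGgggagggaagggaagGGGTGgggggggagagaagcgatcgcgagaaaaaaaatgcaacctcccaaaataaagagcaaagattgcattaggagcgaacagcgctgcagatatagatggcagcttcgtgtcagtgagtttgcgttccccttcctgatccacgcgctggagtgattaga
Klf9: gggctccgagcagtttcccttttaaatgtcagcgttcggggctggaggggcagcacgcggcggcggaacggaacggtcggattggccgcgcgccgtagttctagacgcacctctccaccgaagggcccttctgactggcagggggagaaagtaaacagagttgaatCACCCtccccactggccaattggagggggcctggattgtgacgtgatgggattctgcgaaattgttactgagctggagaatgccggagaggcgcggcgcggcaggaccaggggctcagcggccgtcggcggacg

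The Klf3 window holds 5 CACCC boxes and 6 GC boxes, that of Klf7 holds 3 CACCC boxes and 1 GC box, and that of Klf9 holds 1 CACCC box and no GC box. The letters GGAANNGAA occur once in the Klf7 window, beginning 121 bases before the start site, and once in that of Klf9, beginning 186 bases before it. Neither GAAANNGAA nor GAGGAAGT is in any of the 7 windows. The windows of Klf2 and Klf13, which had no call, hold 1 CACCC box each with 2 and 3 GC boxes, and that of Klf6 holds no CACCC box and 1 GC box. The medians over all RefSeq windows are 1 CACCC box and 0 GC boxes.

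Klf6, an early response factor also known as a tumour suppressor, had positive ratios in all 3 tested probe sets on both array types and no call. The nearest to the threshold, 1433508_at, had 255 and 217 in Icsbp-deficient GMP, against 155 and 95.4 in wild type GMP. The groups were apart, and the log2 ratio was 0.75 ± 0.19 (1.68-fold, limma adjusted p = 0.0581). It passed with an offset of 100 (adjusted p = 0.0434) and with scaling alone (adjusted p = 0.0467). Probe set 1427742_a_at, with 131 and 124 in Icsbp-deficient GMP against 83.9 and 35.5 in wild type GMP, was at 0.75 ± 0.24 (limma adjusted p = 0.123), and 1418280_at at 0.67 ± 0.23 (limma adjusted p = 0.153). Both of these passed the filter only through their Icsbp-deficient arrays, so their direction is partly set by the filter. On the MOE430_2 array alone, 1447448_s_at was at 0.73 and 1459718_x_at at 0.55, with no test.

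Klf13, a factor studied in T cells for its control of the chemokine gene Ccl5, had ratios that differed between array types. Probe set 1432543_a_at had 1171 and 431 in Icsbp-deficient GMP, against 491 and 395 in wild type GMP, with log2 ratios of 1.17 on 430A and 0.15 on MOE430_2. Probe set 1436316_at had 847 and 1241 in Icsbp-deficient GMP, against 744 and 663 in wild type GMP, with 0.17 on 430A and 0.88 on MOE430_2. So the larger ratio came from a different array type in each. Their means, 0.66 ± 0.22 and 0.52 ± 0.18, did not pass (limma adjusted p = 0.135 and 0.148). The third probe set, 1456030_at, was not tested, at signals between 7.25 and 25.4 on the 4 arrays.

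Klf5, known for driving proliferation in epithelial cells and for a part in granulocyte differentiation, gave no call. Probe set 1451021_a_at had 92.1 and 64.3 in Icsbp-deficient GMP, against 127 and 92.2 in wild type GMP. The groups just failed to overlap, and the log2 ratio was -0.29 ± 0.22 (limma adjusted p = 0.533). Probe set 1451739_at had 283 and 80.4 in Icsbp-deficient GMP, against 231 and 74.8 in wild type GMP, at 0.17 ± 0.19 (limma adjusted p = 0.696). The 2 probe sets thus had opposite signs, and neither passed the test.

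Klf10, a gene induced by transforming growth factor beta, had 311 and 303 in Icsbp-deficient GMP, against 337 and 291 in wild type GMP. Its log2 ratio was 0.00 ± 0.17 (limma adjusted p = 0.994), and it was the only tested probe set of the family members followed here whose sign differed between array types. Klf2 was read by 1 probe set, 1448890_at, under the filter. It had 93.0 and 70.0 in Icsbp-deficient GMP, against 71.3 and 36.8 in wild type GMP, log2 ratios of 0.25 on 430A and 0.49 on MOE430_2, and no test. Its groups overlapped.

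**Figure D4:**
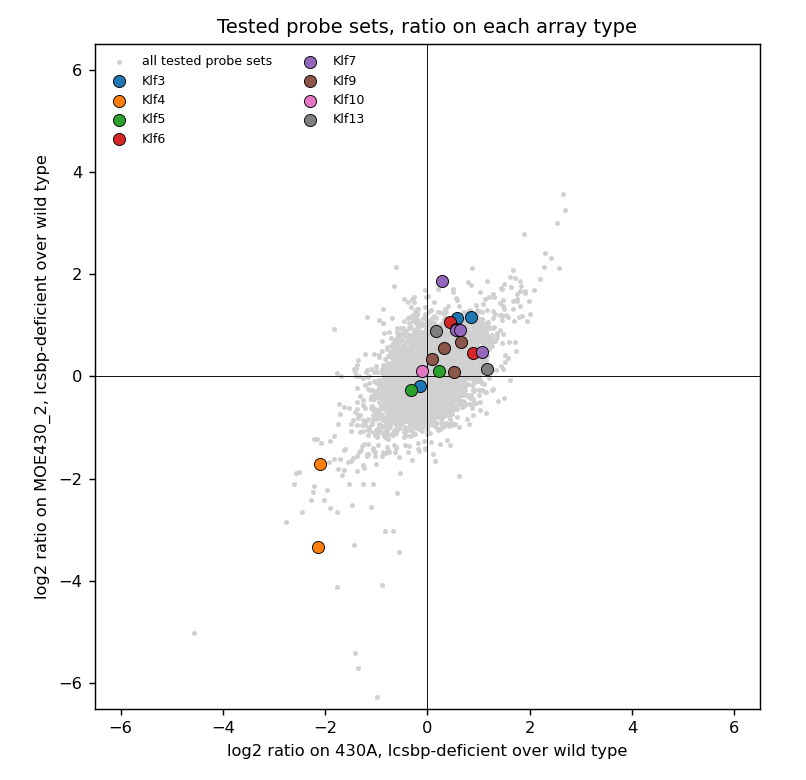
Log2 ratio on the MOE430_2 pair against that on the 430A pair, Icsbp-deficient over wild type, for all 13576 tested probe sets (grey) and the 21 of Kruppel-like factors (coloured by gene). The Klf4 points lie at -2.14 and -3.34, and at -2.09 and -1.72, far below the others. Of the others 16 of 19 have a mean ratio above 0, and some of these passed the filter only through their Icsbp-deficient arrays.

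Other members of the family and its partners were described from lists of textbook genes. Of 17 further Klf and Sp genes 6 were tested by 7 probe sets, and 0 were called by limma. Of the 7, 2 were at an unadjusted p under 0.05, beside 2522 of all 13576 tested probe sets. Klf1, the erythroid factor, had 125 and 29.9 in Icsbp-deficient GMP, against 165 and 201 in wild type GMP. The mean log2 ratio, from -0.30 on 430A and -1.63 on MOE430_2, was -0.97 ± 0.29 (limma adjusted p = 0.104). Sp3 was at 0.46 ± 0.15 (limma adjusted p = 0.123). The list's median was 0.25.

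Cofactors through which these proteins act, such as Ctbp1, Ctbp2, Sin3a and the histone deacetylases, were called in 0 of 18 tested probe sets. Of these 0 were at an unadjusted p under 0.05 in limma, beside 2522 of all 13576 tested probe sets. Ubiquitin ligases of Kruppel-like factors were called in 0 of 7, with 1 at that level. Beside general shares of 2.99% called higher and 2.14% lower, 0 calls in lists this small say little. In the kinase and MEF2 route that induces Klf2 and Klf4 in other cells, 1 of 17 tested probe sets was called lower, beside 2.14% of all tested probe sets, and 0 higher. The called one belongs to the transcription factor Mef2d, and 1 call in a list of this size is near the general share. At an unadjusted p under 0.05 there were 5 of the 17. Mef2d had 784 and 638 in Icsbp-deficient GMP, against 1149.9 and 1058 in wild type GMP, and fell by 0.60 ± 0.14 on the log2 scale (limma adjusted p = 0.0393). The medians of these 3 lists were 0.13, 0.03 and -0.01.

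Of 20 tested probe sets of genes reported as targets of Kruppel-like factors, 1 was called higher and 2 lower, beside 2.99% and 2.14% of all tested probe sets, and their median was 0.00. In limma 7 of the 20 were at an unadjusted p under 0.05, beside 2522 of all 13576 tested probe sets. Counts this small are not set apart from the general shares. Thrombomodulin, Thbd, which Klf2 and Klf4 induce in endothelium, had 80.2 and 100.3 in Icsbp-deficient GMP, against 282 and 225 in wild type GMP. It fell by 1.08 ± 0.21 on the log2 scale (limma adjusted p = 0.017). Endoglin, Eng, reported as a Klf6 target, had 303 and 209 in Icsbp-deficient GMP, against 637 and 421 in wild type GMP, and fell by 0.90 ± 0.16 (limma adjusted p = 0.0121). Cebpd, a C/EBP factor, was higher at 1.12 ± 0.14, with 2720 and 2354 in Icsbp-deficient GMP against 1089 and 1202 in wild type GMP (limma adjusted p = 0.00169).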

How the data were processed

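For each array the authors deposited 1 linear signal intensity a probe set. Per the submitters' processing notes GCOS produced those of the MOE430_2 arrays; no source used here gives its version or settings. Per the labels' protocols an ENZO kit labelled the Icsbp-deficient RNA for 430A, a one-cycle kit labelled the RNA of both MOE430_2 arrays, and the kit behind the wild type 430A array is not given. The deposited intensity was not on a common scale on the 430A pair.

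From the 22690 shared probe sets 64 controls were left out. Each array was scaled to a mean of 500 after trimming 2% at each end, raised by 50, turned to log2 and quantile normalized with the other array of its type. Probe sets under the 40th percentile of mean signal (9050) were not tested. limma 3.58.1 in R 4.3.3 was fitted with array type as a block and an intensity trend, after tests on simulated data. Probe sets were not averaged over a gene. Those on MOE430_2 alone were scaled over all its non-control probe sets. Symbols for lists were updated through the RefSeq table of GRCm38.p6, which matched 20351 of 20380 probe sets with 1 symbol. Where nothing says otherwise each array is a separate preparation. The p-values rest mostly on spread borrowed from other probe sets, with 8.89 degrees of freedom. The spread between the 2 ratios of a probe set adds 1 degree of freedom.

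Named are all probe sets of the 9 genes, Irf8, called genes of 5 lists of family members and partners, and the 5 genes nearest to Klf4 by ratio. Klf1, Sp3 and the marker genes named with Klf4 were added after values were seen. The genes, lists, tests and alternatives were chosen with earlier results of these data known. A further Icsbp-deficient preparation in the design text is not analysed here.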

Additional observations from a re-analysis of the deposited data

How the results depend on the processing

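Over the 26 shared probe sets and 16 alternatives there were 416 comparisons with the reported value. Of these 337 kept direction and side of the threshold or, where a test was missing, moved within the spread. The 337 include the comparisons with 1 array type alone. There the rule fixed the outcome, as either ratio always lies within the spread of the pair around their mean. It held even where the sign differed between types, as for Klf10, so those comparisons say nothing on stability. A further 47 lost a call while still tested and of the same sign, 4 gained one, 13 moved and 15 reversed. Called probe sets that an alternative left untested are therefore not among the 47. Nor are those that lost a call and also reversed. The calls for the 9 genes, 5 higher and 2 lower as reported, became 1 and 2 with an offset of 16, 0 and 2 with no filter, 1 and 0 with a 60th percentile filter, which leaves 7 of their probe sets and neither Klf4 probe set, 0 and 0 with the values as deposited, 1 and 2 without the variance trend, and 0 and 0 without the array type block. Leaving out each array in turn, without the block and with the remaining arrays normalized together, gave 0 higher and between 0 and 2 lower. Over all probe sets, 406 higher and 290 lower became 169 and 97 with no filter, 147 and 120 without the trend, 0 and 0 with the values as deposited (28 at an unadjusted p under 0.05), 0 and 1 without the block (478 at that level), and between 6 and 32 higher and between 3 and 50 lower with an array left out. The remaining alternatives stayed within 1.5 times of these counts.

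The values as deposited put the median of all shared probe sets at -0.48, and with them the ratio reversed for Klf7 1419354_at (-0.016), Klf9 1428288_at (-0.54), 1428289_at (-0.091) and 1456341_a_at (-0.26), Klf13 1432543_a_at (-0.10) and 1436316_at (-0.25), Klf6 1433508_at (-0.017) and Klf5 1451739_at (-0.46), all but Klf9 1428288_at above that median. With an array left out, Klf10 lay between -0.12 and 0.11, Klf9 1428288_at between -0.045 and 0.46, Klf3 1431630_a_at between -0.61 and 0.26 and Klf5 1451739_at between -0.30 and 0.64. The values as deposited keep the unequal scale of the 430A pair, with trimmed means of 167 (Icsbp-deficient) and 498 (wild type). What moved the ratios with an array left out was not tested. The labels give no replicate numbers that groups share; the reported fit pairs the arrays by array type, and the fit without the block is the unpaired one. Klf4 signals in Icsbp-deficient GMP lie near the dim end of the arrays, where signal over background limits the size of the fold.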
